A study of Mus musculus with 4 samples.

Results

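A set of 9 genes of the transforming growth factor beta (TGF-beta) system was followed across the cell classes of the mouse submandibular gland stroma: the ligands Tgfb1, Tgfb2 and Tgfb3, the receptors Tgfbr1, Tgfbr2 and Tgfbr3, and the latent TGF-beta binding proteins Ltbp1, Ltbp2 and Ltbp4. They were taken by gene symbol, and all 9 were found among the 31053 genes of the deposited matrices. The 4 libraries are 10x single-cell libraries from female C57BL6/J mice. In the 2 deligated libraries (14 weeks of age) a metal clip had blocked the ducts over 14 days, and its removal was followed by 5 days of recovery, and the 2 homeostatic libraries (12 weeks) came from glands without surgery. All 4 suspensions were depleted of EpCAM-positive epithelium, Ter119-positive red cells and dead cells. Age differed with surgery, the number of animals behind each library is not given in the sources used here, and p-values therefore measure the spread between these libraries only.

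TGF-beta ligands are secreted in a latent form, folded inside their own propeptide. The propeptide is tethered to the extracellular matrix by latent TGF-beta binding proteins, and integrins or proteases release the active ligand. Active ligand is bound by the type II receptor (Tgfbr2), which phosphorylates the type I receptor (Tgfbr1), and the type I receptor in turn phosphorylates Smad2 and Smad3. Tgfbr3, also called betaglycan, is a co-receptor that presents ligand and is best known for presenting TGF-beta2. Ltbp1 and Ltbp4 bind latent ligand, whereas Ltbp2 is a matrix protein of the same family that does not. In salivary glands the pathway is known for its link to fibrosis, and loss of its signal in mice for inflammation of the gland.

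The 3 ligands differ in how the latent form can be opened, and the coding stretch behind that difference is shown because their source cells differed in part. Integrins with an alpha V chain pull on an Arg-Gly-Asp motif in the propeptide. In GENCODE M21 transcripts on GRCm38, this motif was encoded in frame 1 time in Tgfb1 (codons 244 to 246 of 390) and 1 time in Tgfb3 (codons 261 to 263 of 412), and 0 times in Tgfb2 (442 codons). The windows of 45 coding bases follow, with the motif in capitals. For Tgfb2 the capitals mark codons 289 to 291, which a global alignment to Tgfb1 and one to Tgfb3 both placed opposite the motif.
Tgfb1: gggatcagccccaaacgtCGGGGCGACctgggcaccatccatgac
Tgfb2: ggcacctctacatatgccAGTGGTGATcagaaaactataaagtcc
Tgfb3: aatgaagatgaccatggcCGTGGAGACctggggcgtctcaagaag
The Tgfb1 window lies on the plus strand at chr7:25696995-25697168, across the junction of exons 4 and 5 of 7. The Tgfb2 window lies on the minus strand at chr1:186630735-186630779 in exon 6 of 8, and the Tgfb3 window on the minus strand at chr12:86062147-86062191 in exon 5 of 7.

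Barcodes numbered 4725 to 13266 per library, with 35662241 to 53898793 UMIs (unique molecular identifiers, which count captured transcripts), and 33695 cells were retained. Median UMIs per retained cell were 6020 and 5158 in the deligated libraries and 2901 and 2739.5 in the homeostatic libraries. Pairs of libraries shared 10 to 38 barcodes. Although epithelium had been depleted, epithelial-like cells numbered 3083 and 3387 in the homeostatic against 4 and 27 in the deligated libraries. Of 31 clusters, 24 were named from markers, and 5 classes held at least 50 cells in every library: endothelial-like, fibroblast-like, mural-like (pericytes and vascular smooth muscle), NK/innate lymphoid-like and T cell-like. Most clusters held cells of 1 group, so that each class is made of different clusters in the 2 groups (endothelial-like 2, 13 and 25 against 1 and 11, fibroblast-like 7 against 10, mural-like 18 and 19 against 22, NK/innate lymphoid-like 3 and 14 against 4, T cell-like 5 and 23 against 17). The T cell-like groups hold partly unlike cells: homeostatic cluster 17 has Il1rl1 among its leading genes, whereas a deligated cluster led by Il1rl1 and Areg (54 and 129 cells) was left unnamed. Under the stricter cell filter 82 and 70 homeostatic cells led by Stab2, Dach2 and Il1rl1 were unnamed too. Macrophage-like cells were 38 and 93 in the deligated libraries and were described without a test. Erythroid markers stood out in deligated 2, where they summed to 2441 CPM in fibroblast-like and 2876 CPM in mural-like cells against at most 380 CPM in the other libraries, and their part in the results was not tested. The matrix headers name Cell Ranger 6.0.1 for the deligated and 7.0.0 for the homeostatic libraries, so the effect of the software cannot be told apart from that of the group. Genes with long introns were lower in the deligated libraries in every class: the median log2 fold change of genes with over 100 kb of intron was between -0.73 and -1.36. Each change of the 9 genes is therefore also given after this trend on intron length was removed wherever that alters the call, and intron length is stated for the genes concerned.

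Levels are given in CPM, a gene's UMIs scaled to a common total of all UMIs of a class in a library, in the order deligated 1, deligated 2, homeostatic 1, homeostatic 2 unless stated. They are compared between classes for 1 gene at a time, as a description without a test, since the classes were clustered on the same data. Changes between groups are log2 fold changes, deligated over homeostatic, with the standard error (SE) from edgeR's quasi-likelihood test, adjusted over all genes tested in the class. A gene was called at an adjusted p under 0.05.

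**Figure D1:**
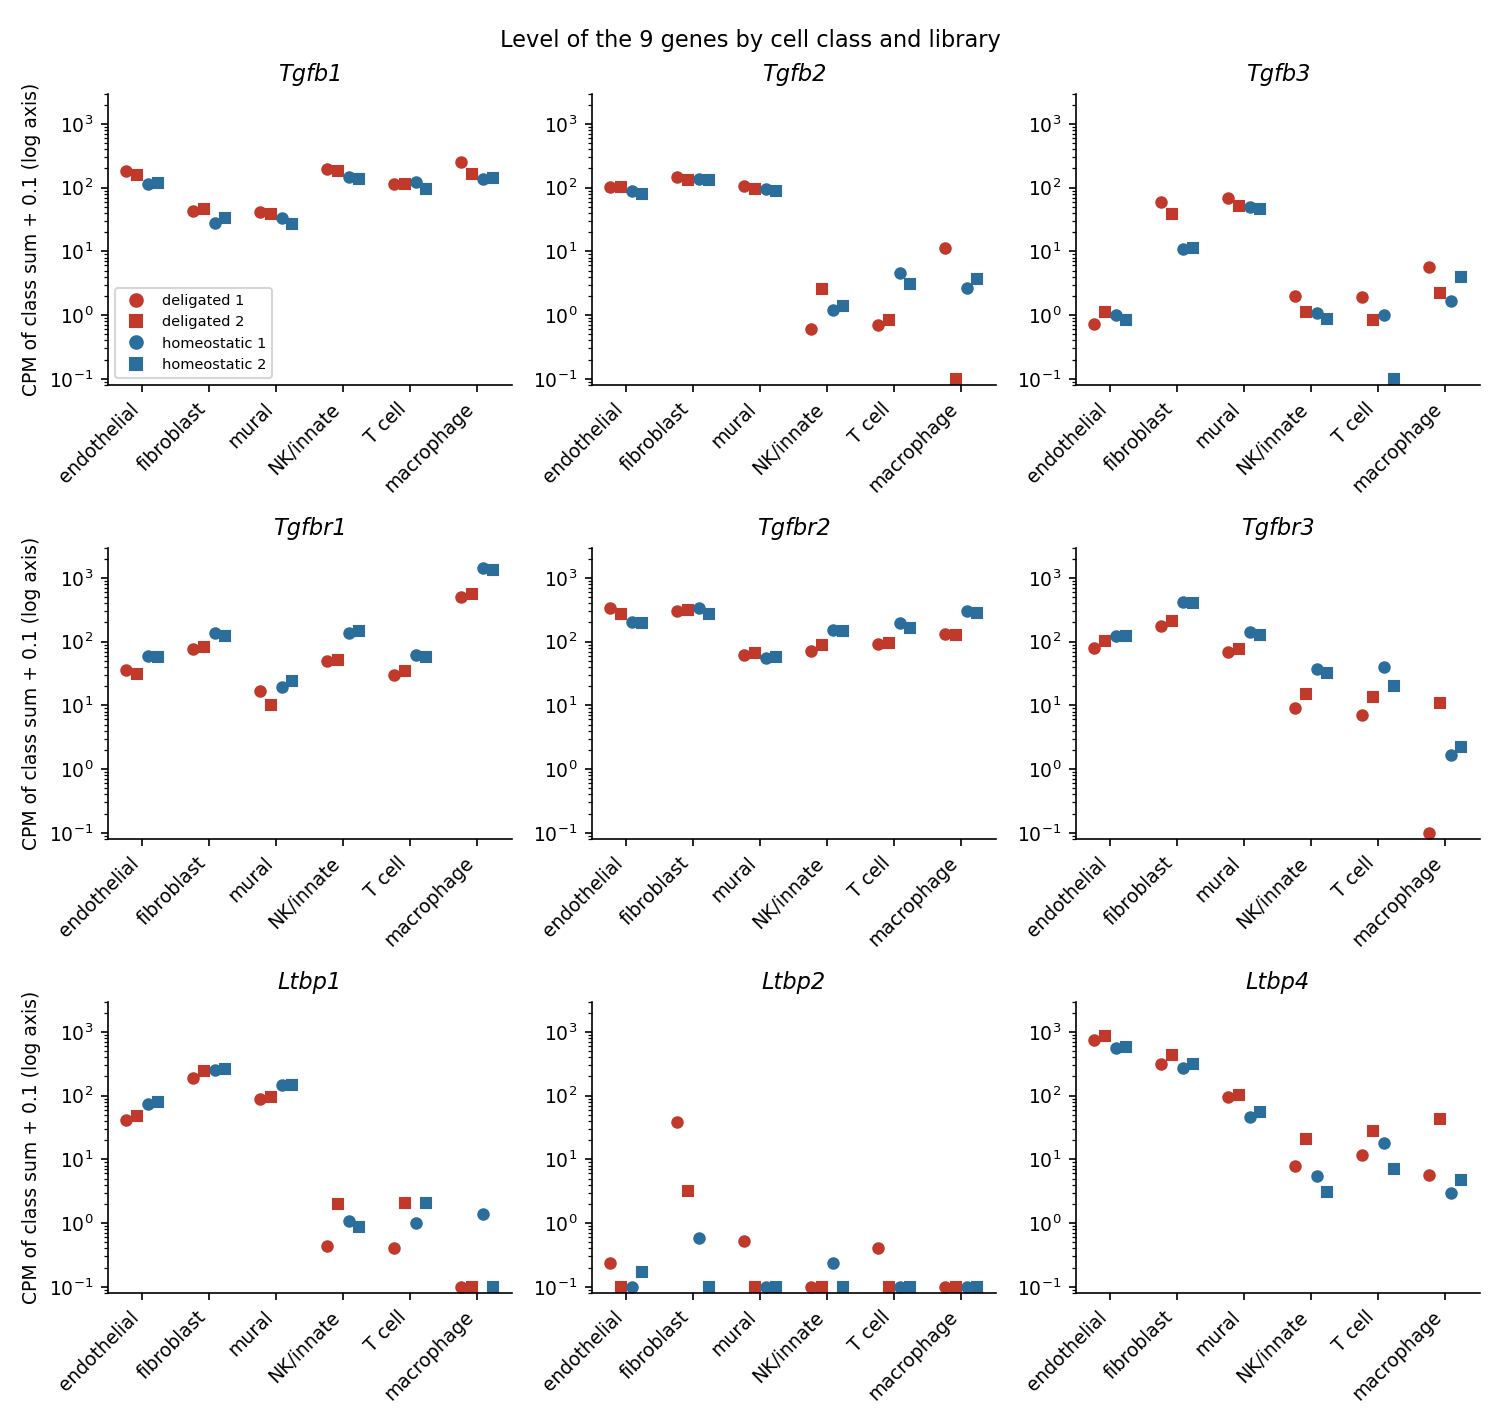
Level of each of the 9 genes (CPM of the class sum plus 0.1, log axis) in 6 cell classes, 1 point per library, deligated in red and homeostatic in blue. Tgfb3 in fibroblast-like cells sits at 59.0 and 38.9 CPM in the deligated against 10.8 and 11.01 CPM in the homeostatic libraries, and Tgfbr1 is highest in macrophage-like cells.

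Tgfb3 had the largest called change in fibroblast-like cells apart from Ltbp2, which rested on 1 library. It stood at 59.0, 38.9, 10.8 and 11.01 CPM, from 280, 253, 22 and 21 UMIs. Both deligated libraries lay above both homeostatic libraries, and the log2 fold change was 2.22 (SE 0.28, adjusted p = 0.00024). The call held in all 14 alternatives run for this class, with log2 fold changes between 1.86 and 2.55. A Tgfb3 UMI was seen in 44.0% of fibroblast-like cells of deligated 1 (95% Clopper-Pearson interval 38.8 to 49.3%), 24.7% in deligated 2 (21.7 to 28.0%), 6.27% in homeostatic 1 (3.82 to 9.62%) and 6.92% in homeostatic 2 (4.28 to 10.49%). These intervals, like all others given, cover counting error only. The deligated cells were deeper, with a median of 13080 and 9106 UMIs against 6742 and 6556. After every cell was thinned to 1000 UMIs, 14 of 359 and 30 of 725 deligated cells held a Tgfb3 UMI against 1 of 302 and 1 of 287 homeostatic cells, a level too near 1 UMI to give a ratio. In endothelial-like cells, which give a background, the unthinned share was between 0.299% and 0.552% at median depths of 3643 to 5820 UMIs.

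Mural-like cells held Tgfb3 in both groups, at 68.6, 52.3, 49.7 and 45.6 CPM. The deligated libraries were the higher ones, but the change of 0.34 (SE 0.24) was not called (adjusted p = 0.46). The increase was smaller than in fibroblast-like cells by the test of the difference itself (log2 difference -1.99, SE 0.28, adjusted p = 0.025). Within the class, the smooth-muscle cluster 18 stood at 83.6 and 72.6 CPM and the cluster led by Kcnj8, a pericyte channel gene, at 41.5 and 20.1 CPM, both made of deligated cells, against 49.8 and 46.4 CPM in the homeostatic cluster 22. The Kcnj8-led cluster 19 held 156 and 225 deligated cells against 1 and 2 homeostatic cells, and cluster 22 met the marker rule for neither smooth muscle nor pericytes, so that like mural clusters could not be compared between groups. Leaving out cluster 19, an alternative chosen after seeing the data that removes almost only deligated cells and so compares unlike cells, gave a called Tgfb3 change of 0.79 (SE 0.21, adjusted p = 0.038; 11.3% of genes were called). In homeostatic glands mural-like cells were the highest class and fibroblast-like cells followed well below. In deligated glands the library values of these classes overlapped, although mural-like cells were the higher within each deligated library. Endothelial-like cells stayed between 0.623 and 1.03 CPM, with a change of 0.03 (SE 0.40, adjusted p = 0.95).

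By its mean over libraries Tgfb2 was highest in fibroblast-like, mural-like, endothelial-like and Schwann-like cells. Fibroblast-like cells held 148, 130, 139 and 129.5 CPM, mural-like cells 108, 94.6, 96.3 and 88.0 CPM, and endothelial-like cells 100.5, 100.6, 88.0 and 79.3 CPM, while NK/innate lymphoid-like and T cell-like cells stayed under 5 CPM. Schwann-like cells, which were not tested, held 72.8, 79.2, 76.3 and 62.5 CPM from 10 to 25 UMIs per library. The groups overlapped in fibroblast-like cells. In endothelial-like cells both deligated libraries were higher, by 0.29 on the log2 scale (SE 0.09, adjusted p = 0.046). This call was lost without homeostatic 1 (0.35, adjusted p = 0.24) and without homeostatic 2 (0.23, adjusted p = 0.44), and the change was 1.05 (adjusted p = 0.00038) under the stricter cell filter. With that filter the homeostatic arterial-type cluster (273 and 239 cells) was left unnamed while the deligated one (164 and 271 cells) stayed endothelial-like, so that unlike cells are compared there. Tgfb2 has 77.4 kb of intron, and with the intron-length trend removed the endothelial-like change was 0.61 (adjusted p = 0.0049) and the fibroblast-like change went from 0.11 (adjusted p = 0.60) to 0.57 (adjusted p = 0.020).

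Among endothelial-like cells Tgfb2 stood highest in 2 clusters with 5 of 6 arterial markers (Gja5, Gja4, Hey1, Sema3g and Bmx). These arterial-type clusters held 394.5 and 529 CPM in deligated cells (cluster 13) and 461.5 and 418 CPM in homeostatic cells (cluster 11). The largest clusters held 69.5 and 61.4 CPM (cluster 2, deligated) and 47.9 and 43.7 CPM (cluster 1, homeostatic). Cluster 25, which had all 5 venous markers and held deligated cells, was lowest with 15.6 and 1.67 CPM. Within arterial-type clusters alone the groups overlapped (log2 fold change 0.08, SE 0.14, adjusted p = 0.78), and without them the change was 0.47 (SE 0.11, adjusted p = 0.017). The difference between these changes was -0.38 (SE 0.14, adjusted p = 0.37) and did not pass the test.

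**Figure D2:**
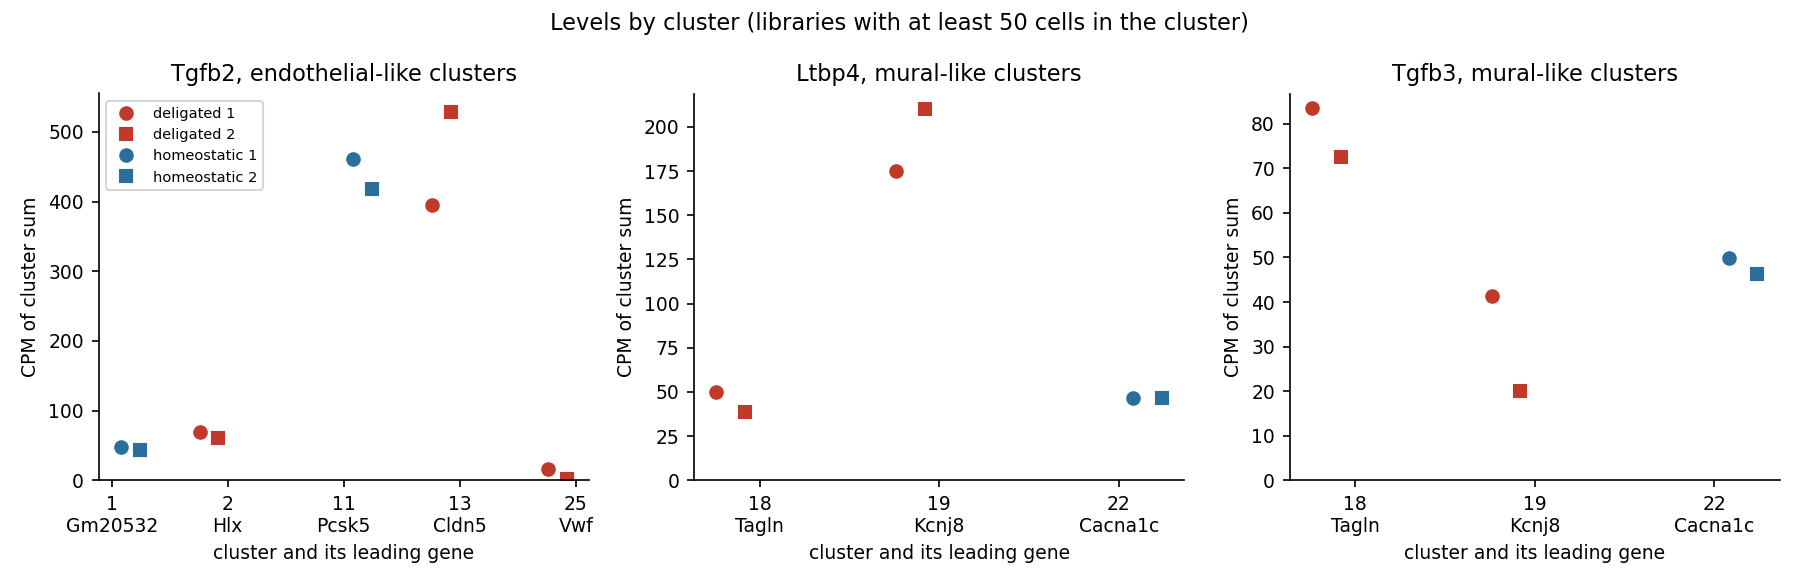
CPM of Tgfb2 in endothelial-like clusters and of Ltbp4 and Tgfb3 in mural-like clusters, 1 point per library with at least 50 cells in the cluster, each cluster labelled with its leading gene. Tgfb2 stands above 390 CPM in arterial-type clusters 11 and 13 and under 70 CPM elsewhere, and Ltbp4 is at 175 and 210 CPM in the Kcnj8-led cluster 19.

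Tgfb1, the ligand most associated with immune cells, was spread over haematopoietic and endothelial classes. NK/innate lymphoid-like cells held 198, 185.5, 146 and 139 CPM, endothelial-like cells 181, 157, 113 and 118 CPM, and T cell-like cells 115, 114, 123 and 96.6 CPM. Fibroblast-like cells (43.4, 46.1, 27.5 and 33.0 CPM) and mural-like cells (41.9, 37.8, 33.1 and 26.7 CPM) were lower. Both deligated libraries exceeded both homeostatic libraries in each of these classes except T cell-like cells. Macrophage-like cells, which were not tested, held 253, 165.5, 137.5 and 142 CPM from 46, 78, 432 and 400 UMIs. B cell-like cells, also not tested, held 129, 152, 160 and 131 CPM from 48, 38, 59 and 46 UMIs. Tgfb1 rose by 0.58 in endothelial-like cells (SE 0.12, adjusted p = 0.012), by 0.54 in NK/innate lymphoid-like cells (SE 0.09, adjusted p = 0.0022) and by 0.62 in fibroblast-like cells (SE 0.17, adjusted p = 0.021). It was not called in mural-like cells (0.41, SE 0.25, adjusted p = 0.40) or in T cell-like cells (0.19, SE 0.16, adjusted p = 0.42). With 13.0 kb of intron it was little moved by the intron-length trend, although the fibroblast-like call was lost (0.50, adjusted p = 0.068). Without homeostatic 1 or homeostatic 2 the changes were 0.53 and 0.62 in endothelial-like cells (adjusted p = 0.14 and 0.092) and 0.48 and 0.76 in fibroblast-like cells (adjusted p = 0.25 and 0.060), while the call in NK/innate lymphoid-like cells held in all 14 alternatives. Tgfb2, Tgfb3 and Ltbp2 overlap another gene on the opposite strand, and whether counting used strand is not given in the sources used here. Tgfb1 overlaps none.

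Tgfbr1, the type I receptor, fell in 4 of the 5 tested classes. NK/innate lymphoid-like cells held 49.4, 50.8, 137 and 147.5 CPM, a log2 fold change of -1.40 (SE 0.09, adjusted p = 2.4e-05). Fibroblast-like cells held 75.6, 81.8, 136 and 122 CPM (-0.66, SE 0.14, adjusted p = 0.0056), and endothelial-like cells 36.4, 30.9, 60.0 and 58.0 CPM (-0.79, SE 0.12, adjusted p = 0.0045). T cell-like cells held 29.8, 34.9, 61.8 and 58.2 CPM (-0.76, SE 0.19, adjusted p = 0.023). In each of these classes both deligated libraries lay below both homeostatic libraries. Mural-like cells, the lowest tested class, were not called (-0.70, SE 0.40, adjusted p = 0.35). Tgfbr1 has 55.2 kb of intron. With the trend removed the calls held in NK/innate lymphoid-like (-0.98, adjusted p = 0.00033) and endothelial-like cells (-0.60, adjusted p = 0.015) and were lost in fibroblast-like (-0.36, adjusted p = 0.10) and T cell-like cells (-0.36, adjusted p = 0.28). The fibroblast-like call was also lost without homeostatic 1 (-0.58, adjusted p = 0.12), and the T cell-like call without homeostatic 1 (-0.77, adjusted p = 0.16) or homeostatic 2 (-0.77, adjusted p = 0.14).

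The highest level of Tgfbr1 was in macrophage-like cells, at 500, 549.5, 1454 and 1351 CPM. These came from 91, 259, 4568 and 3813 UMIs, and deligated 1, with 38 macrophage-like cells, held too few for a test. Within homeostatic macrophage-like cells the level was split between clusters: cluster 9, whose leading genes include Cx3cr1 and Adgre1, held 1918 and 1869 CPM, and cluster 6, led by Aif1 and with a median of 1169 UMIs per cell, 114 and 76.0 CPM. Deligated macrophage-like cells were mostly cluster 30, with 547.5 CPM in deligated 2. In the whole suspension Tgfbr1 fell from 219 and 212 CPM in homeostatic to 45.2 and 48.9 CPM in deligated libraries, a log2 fold change of -2.33 (SE 0.08, adjusted p = 0.00014). Macrophage-like cells were 8.57% of homeostatic and 1.03% of deligated cells and held 45.6% ± 3.72 (SD, n = 2) against 8.85% ± 3.74 of all Tgfbr1 UMIs. Cells of unnamed clusters held another 28.9% ± 2.19 and 4.03% ± 1.64. Among these were clusters 15 and 20, which met 6 and 10 macrophage markers but were led by haemoglobin genes. Cluster 15 held 30 and 135 deligated and 177 and 165 homeostatic cells, and cluster 20 held 3 and 18 against 167 and 183. Their part in the result was not tested. In the sums of the whole suspension fewer cells of a type and less RNA per cell cannot be told apart.

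Tgfbr2, the ligand-binding type II receptor, moved in opposite directions in endothelial-like and lymphoid cells, but the lymphoid decreases were not called with the intron-length trend removed. Endothelial-like cells held 335, 274, 203 and 194 CPM, and both deligated libraries were higher (0.65, SE 0.14, adjusted p = 0.014). The opposite held for NK/innate lymphoid-like cells, at 71.9, 89.2, 152.5 and 149 CPM (-0.79, SE 0.10, adjusted p = 0.00068), and for T cell-like cells, at 91.9, 94.1, 198 and 166 CPM (-0.84, SE 0.14, adjusted p = 0.0043), with both deligated libraries lower. The T cell-like sum of homeostatic 1, the highest, also held 355.5 CPM of the 10 endothelial markers against 157, 250 and 161 CPM in deligated 1, deligated 2 and homeostatic 2, and 256 CPM of lymphatic endothelial markers, and their part in the result was not tested. Fibroblast-like cells, at 305, 311, 332 and 269.5 CPM, overlapped between groups (0.09, SE 0.14, adjusted p = 0.65), and mural-like cells at 62.6, 67.2, 55.7 and 58.2 CPM were not called. Macrophage-like cells, which were not tested, held 132, 127, 299 and 283 CPM from 24, 60, 939 and 798 UMIs. Against the fibroblast-like change, the NK/innate lymphoid-like change was lower by 0.82 (SE 0.16, adjusted p = 0.0100) and the T cell-like change by 1.03 (SE 0.19, adjusted p = 0.0045), and both differences stayed called with the trend removed. Tgfbr2 has 82.9 kb of intron. Removing the trend raised the endothelial-like change to 1.00 (adjusted p = 0.0042), gave a called rise in fibroblast-like cells (0.59, adjusted p = 0.015) and ended the calls in NK/innate lymphoid-like (-0.11, adjusted p = 0.45) and T cell-like cells (-0.18, adjusted p = 0.47). Without homeostatic 1 or homeostatic 2 the endothelial-like change was 0.66 and 0.63 and not called (adjusted p = 0.11 and 0.12), and the T cell-like change was not called without homeostatic 1 (-0.76, adjusted p = 0.088).

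Tgfbr3, the co-receptor betaglycan, was highest in fibroblast-like cells and lower in the deligated libraries of every tested class. Fibroblast-like cells held 179, 210, 413 and 408.5 CPM (-1.02, SE 0.13, adjusted p = 0.00022), mural-like cells 69.4, 75.7, 140 and 129 CPM (-0.90, SE 0.17, adjusted p = 0.0065) and endothelial-like cells 78.6, 102, 121 and 121.5 CPM (-0.41, SE 0.11, adjusted p = 0.033). In NK/innate lymphoid-like cells it fell from 36.9 and 32.4 CPM in the homeostatic to 8.86 and 14.8 CPM in the deligated libraries (-1.38, SE 0.20, adjusted p = 0.0012). T cell-like cells showed 6.93, 13.7, 40.0 and 19.7 CPM (-1.39, SE 0.42, adjusted p = 0.048). Here too homeostatic 1 was the highest, and its T cell-like sum held the 256 CPM of 6 lymphatic endothelial markers against 0.603, 5.12 and 0.986 CPM in deligated 1, deligated 2 and homeostatic 2, and their part in the result was not tested. Without homeostatic 1 the T cell-like change was -0.85 (adjusted p = 0.39), and without homeostatic 2 it was -1.78 (adjusted p = 0.066). The stricter cell filter, which took part of the homeostatic cells out of the T cell-like class, ended this call (-1.69, adjusted p = 0.053) and not those of Tgfbr1 (-1.29, adjusted p = 0.0093) and Tgfbr2 (-0.84, adjusted p = 0.015). In endothelial-like cells it was -0.43 and -0.39 without homeostatic 1 and 2 (adjusted p = 0.19 and 0.23) and -0.27 without deligated 1 (adjusted p = 2.1e-05). Tgfbr3 has 176.5 kb of intron, more than 96.15% of annotated genes have, and none of these calls held with the trend removed: the values were -0.05, -0.21, 0.35, -0.14 and -0.17 in the order of the classes above, with adjusted p = 0.85, 0.58, 0.062, 0.64 and 0.83. The decrease therefore cannot be told apart from the general shift of long genes between the libraries. Schwann-like cells, with 30 to 64 cells per library, held Tgfbr3 at 89.6, 104.5, 359.5 and 281 CPM and were not tested.

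Ltbp4, which binds latent TGF-beta and elastic fibres, was concentrated in endothelial-like cells. They held 736, 856, 555 and 583 CPM, with both deligated libraries higher (0.50, SE 0.09, adjusted p = 0.0088). Removing the intron-length trend left this at 0.50 (adjusted p = 0.011). Without homeostatic 1 or homeostatic 2 it was 0.45 and 0.55 and not called (adjusted p = 0.20 and 0.12). Arterial-type clusters held the highest levels, 1147 and 1282 CPM in deligated and 1056 and 1161 CPM in homeostatic cells, and their change was 0.13 (SE 0.12, adjusted p = 0.54). In the other endothelial-like clusters the change was 0.57 (SE 0.10, adjusted p = 0.0050). The difference between arterial-type and other endothelial-like cells was itself called (-0.43, SE 0.08, adjusted p = 0.0071), where 0.749% of genes were called in that comparison. Schwann-like cells, with 30 to 64 cells per library and not tested, held Ltbp4 at 409, 437, 201.5 and 125 CPM from 73, 138, 37 and 20 UMIs.

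Fibroblast-like cells held 309, 427.5, 269 and 316 CPM of Ltbp4, where the groups overlapped (0.39, SE 0.16, adjusted p = 0.10; called at 0.58 without deligated 1, adjusted p = 1.5e-07). Mural-like cells rose from 46.7 and 55.0 CPM in the homeostatic to 94.8 and 104 CPM in the deligated libraries (0.96, SE 0.19, adjusted p = 0.011). The Kcnj8-led cluster 19 held 175 and 210 CPM, against 50.0 and 38.6 CPM in the deligated smooth-muscle cluster 18 and 46.8 and 46.4 CPM in the homeostatic cluster 22. The mural-like call rested on cluster 19: without it, where unlike cells are compared, the change was 0.02 (SE 0.25, adjusted p = 0.98). With doublets kept the change was 0.23 (adjusted p = 0.53). Without homeostatic 1 it was 0.80 (adjusted p = 0.13). In NK/innate lymphoid-like cells Ltbp4 was low, at 7.67, 20.7, 5.37 and 2.94 CPM, and rose by 1.96 (SE 0.46, adjusted p = 0.011). Deligated 2 stood above the other libraries, and without it the change was 1.05 (adjusted p = 0.0095). Without homeostatic 2 it was 1.58 and not called (adjusted p = 0.061). The summed level of the 10 fibroblast markers in the same NK/innate lymphoid-like sums moved with it, at 66.6, 222, 13.1 and 13.6 CPM with no marker at 0, and that of the 6 lymphatic endothelial markers was 1.02, 18.0, 0.964 and 0.384 CPM. Their part in the result was not tested.

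Ltbp1, a matrix tether of latent ligand, was highest in fibroblast-like cells (192, 243, 252 and 262 CPM), followed by mural-like cells (89.3, 96.6, 146 and 149 CPM) and endothelial-like cells (40.6, 47.3, 73.5 and 78.1 CPM). It was called lower in endothelial-like (-0.76, SE 0.09, adjusted p = 0.0015) and mural-like cells (-0.68, SE 0.16, adjusted p = 0.029) and not in fibroblast-like cells (-0.18, SE 0.14, adjusted p = 0.36). The mural-like change was not called without deligated 1 (-0.66, adjusted p = 0.070), homeostatic 1 (-0.73, adjusted p = 0.12), homeostatic 2 (-0.63, adjusted p = 0.20) or cluster 19 (-0.42, adjusted p = 0.18), and the fibroblast-like change was called without deligated 2 (-0.30, adjusted p = 0.022). Ltbp1 has the longest introns of the 9 genes (376.3 kb), and its direction turned with the trend removed. It was then higher in endothelial-like cells (0.41, adjusted p = 0.019) and fibroblast-like cells (1.30, adjusted p = 0.00020), and at 0.41 in mural-like cells (adjusted p = 0.23). No direction is drawn for Ltbp1 within a class. The endothelial-like change was lower than the fibroblast-like change by 0.72 (SE 0.11, adjusted p = 0.0032), and by 1.03 with the trend removed (adjusted p = 0.00024). For mural-like cells this difference was -0.61 (adjusted p = 0.17) and was called with the trend removed (-1.002, adjusted p = 0.036). For NK/innate lymphoid-like cells it turned from 0.96 (adjusted p = 0.39) to -0.52 (adjusted p = 0.71), and for T cell-like cells it went from -0.04 to -1.52 (adjusted p = 1 and 0.58), called in neither fit.

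Ltbp2, the family member that does not bind latent ligand, was found almost wholly in deligated fibroblast-like cells, and mostly in 1 library. The UMIs in this class were 185, 20, 1 and 0. The ratio of the pooled deligated to the pooled homeostatic level was 71.9, with a counting interval of 12.8 to 2853, and the fitted log2 fold change of 6.22 (SE 1.89, adjusted p = 0.034) depends on the prior count. In deligated 1, 37 of 359 fibroblast-like cells held a Ltbp2 UMI (10.3%, interval 7.36 to 13.9%), and 5 cells held 94 of the 185 UMIs. In deligated 2 it was 12 of 744 cells (1.61%, interval 0.836 to 2.80%), and in homeostatic 1 it was 1 of 303 (0.330%, interval 0.00836 to 1.82%). In homeostatic 2 it was 0 of 289 (interval 0 to 1.27%). A limit of 3 counts for a count of 0 allows a share of cells with a UMI of up to 1.04% there. Endothelial-like cells, as a background, held it in 2 of 1884, 0 of 3082, 0 of 3430 and 1 of 3349 cells. Without deligated 1, under the stricter cell filter and in thinned sums the gene did not pass the filter on low counts and was not tested, and without homeostatic 1 it was not called (adjusted p = 0.060).

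In deligated 1 the Ltbp2-holding fibroblast-like cells had 13.0% of the UMIs of the class and 28.6% of its Tgfb3 UMIs (80 of 280). In deligated 2 the corresponding shares were 1.61% and 1.19% (3 of 253). The Ltbp2-holding cells of deligated 1 were also deeper than the class, with a median of 16090 against 13080 UMIs.

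**Figure D3:**
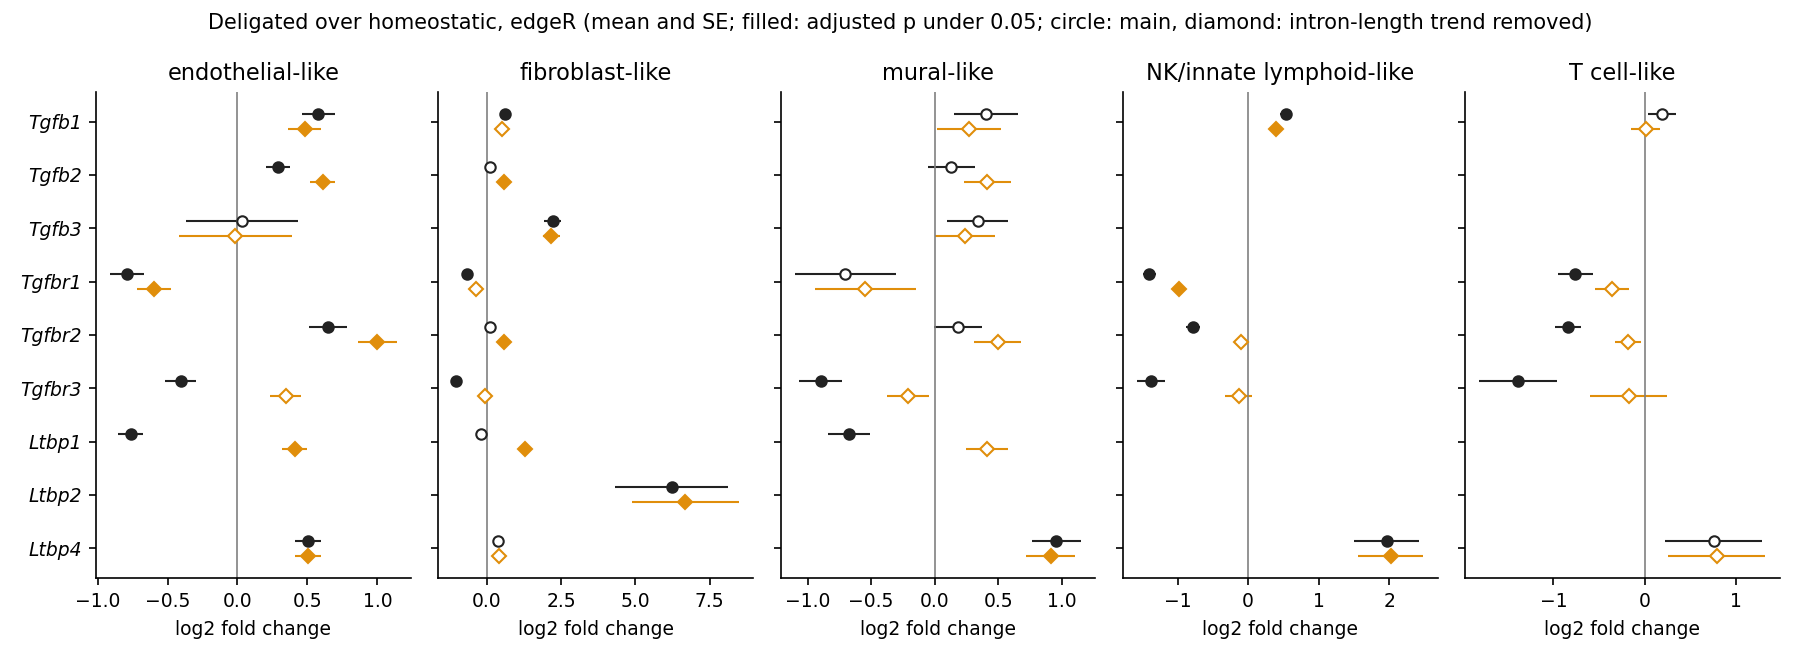
Log2 fold change (deligated over homeostatic, with SE) of the 9 genes in the 5 tested classes, circles for the edgeR fit and diamonds for the same fit with the intron-length trend removed; filled symbols are called at an adjusted p under 0.05, and the horizontal scale differs between panels. Tgfb3 in fibroblast-like cells is at 2.22 and 2.17 under both fits, whereas Ltbp1 in endothelial-like cells turns from -0.76 to 0.41.

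Counted by class, 7 of the 8 genes tested in endothelial-like cells were called, 4 higher and 3 lower, against a background of 35% of the 13155 genes tested (12.6% higher, 22.3% lower). In fibroblast-like cells 5 of 9 were called, 3 higher and 2 lower, where the background was 26.9% (8.67% higher, 18.2% lower). In mural-like cells 3 of 8 were called, 1 higher and 2 lower, where the background was 8.02% (1.35% and 6.67%). All 5 tested were called in NK/innate lymphoid-like cells, 2 higher and 3 lower, where the background was 44.7% (17.5% and 27.2%). In T cell-like cells 3 of 5 were called, all lower, where it was 22.9% (6.92% and 16%). Ltbp2 did not pass the filter on low counts in endothelial-like and mural-like cells, nor did Tgfb2, Tgfb3, Ltbp1 and Ltbp2 in the lymphoid classes. The genes were chosen with earlier results of these data known, so the counts are a description. The median log2 fold change of the tested genes was 0.16, 0.11, 0.16, -0.79 and -0.76 in these classes in the order given, beside medians of all tested genes between -0.0011 and 0.0235.

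With the intron-length trend removed, 6 genes were called in endothelial-like cells, 5 higher and 1 lower (background 28.4%, with 11.3% higher and 17% lower). All 5 called in fibroblast-like cells were higher (background 17.7%, with 8.25% higher and 9.41% lower), and the 1 called in mural-like cells, Ltbp4, was higher (3.87%, with 1.31% and 2.56%). In NK/innate lymphoid-like cells 2 were higher and 1 lower (31%, with 13.6% and 17.4%), and in T cell-like cells 0 of 5 were called by edgeR and 0 had an unadjusted p under 0.05 (13.2%, with 5.44% and 7.72%).

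The change in a class was also tested against the change in fibroblast-like cells. It differed for 3 of 9 genes in endothelial-like cells (Tgfb3, Tgfbr3 and Ltbp1, background 5.08%), for 3 of 9 in NK/innate lymphoid-like cells (Tgfbr1, Tgfbr2 and Ltbp4, 3.98%), for 1 of 8 in T cell-like cells (Tgfbr2, 3.45%) and for 1 of 8 in mural-like cells (Tgfb3, 0.406%). With the trend removed it was 2 genes in each class, against 5.07%, 4.15%, 3.17% and 0.507%: Tgfb3 and Ltbp1 in endothelial-like, Tgfbr2 and Ltbp4 in NK/innate lymphoid-like, Tgfb2 and Tgfbr2 in T cell-like, and Tgfb3 and Ltbp1 in mural-like cells. The Tgfb2 value in T cell-like cells came from 2 to 5 UMIs per library. Among endothelial-like cells, 15.5% of genes were called in arterial-type clusters alone and 35.1% in the others.

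Leaving out a homeostatic library lowered these counts. Without homeostatic 1 or homeostatic 2 the calls in endothelial-like cells came down to 2, namely Tgfbr1 and Ltbp1. In fibroblast-like cells 2 were called without homeostatic 1 (Tgfb3 and Tgfbr3) and 4 without homeostatic 2, in mural-like cells 1 and 2, and in T cell-like cells 0 and 1 (in the first of these, 2 genes had an unadjusted p under 0.05 with edgeR). Whichever library was left out, 4 or 5 were called in NK/innate lymphoid-like cells. With DESeq2 in place of edgeR, 1 gene was called in T cell-like and 0 in mural-like cells, where 3 mural-like genes had an unadjusted p under 0.05.

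Across the whole suspension 6 of the 9 genes were called, 5 higher and 1 lower, where the background was 54% (24% higher, 30% lower). With the trend removed 8 were called, 7 higher and 1 lower (47.4%, with 19.9% and 27.5%). Tgfb3 rose by 2.19 (SE 0.26, adjusted p = 0.0022), from 2.29 and 2.53 CPM in the homeostatic to 14.8 and 9.40 CPM in the deligated libraries. Ltbp4 rose by 0.77 (SE 0.08, adjusted p = 0.0016), Tgfb2 by 0.61 (SE 0.13, adjusted p = 0.013), Tgfb1 by 0.54 (SE 0.08, adjusted p = 0.0048) and Ltbp1 by 0.32 (SE 0.08, adjusted p = 0.023). Tgfbr3 (-0.09, SE 0.08, adjusted p = 0.37) and Tgfbr2 (0.33, SE 0.12, adjusted p = 0.064) were not called. Without either homeostatic library 3 genes were called (Tgfbr1, Ltbp4 and Tgfb3), and without deligated 2 all 9. The makeup of the suspension differed too, with fibroblast-like cells at 8.87% of deligated and 2.75% of homeostatic cells.

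The share of each gene's UMIs that a class held is given for deligated and homeostatic libraries in turn. Of all Tgfb3 UMIs, fibroblast-like cells held 58.3% ± 0.154 (SD, n = 2) in deligated and 21.0% ± 1.70 in homeostatic libraries, and mural-like cells 31.9% ± 2.59 and 30.3% ± 4.22. Tgfb1 came from endothelial-like cells (48.6% ± 10.1 and 42.9% ± 0.242) and NK/innate lymphoid-like cells (31.5% ± 9.44 and 28.6% ± 0.347). Macrophage-like cells held 1.11% ± 0.187 and 11.1% ± 0.622 of Tgfb1, beside 0.792% and 7.00% of the UMIs of all genes. Tgfb2 came from endothelial-like cells (58.2% ± 0.0414 and 65.8% ± 2.28), with 28.9% ± 1.02 and 14.9% ± 0.388 from fibroblast-like cells. Endothelial-like cells held 79.9% ± 4.99 and 87.4% ± 0.609 of Ltbp4. Of Ltbp1, fibroblast-like cells held 55.6% ± 4.52 and 29.1% ± 0.799, and endothelial-like cells 31.4% ± 3.25 and 60.7% ± 0.337. Beside these shares, of the UMIs of all genes fibroblast-like cells held 14.4% and 4.63% endothelial-like cells 40.2% and 32.8%, NK/innate lymphoid-like cells 23.0% and 17.7%, and mural-like cells 6.34% and 1.53%. Endothelial-like cells held 58.7% ± 9.44 and 42.9% ± 0.00956 of Tgfbr2, and macrophage-like cells 0.506% ± 0.258 and 13.5% ± 0.701. Of Tgfbr3 endothelial-like cells held 47.6% ± 1.92 and 54.0% ± 1.17, and fibroblast-like cells 37.0% ± 0.541 and 25.9% ± 0.137.

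**Figure D4:**
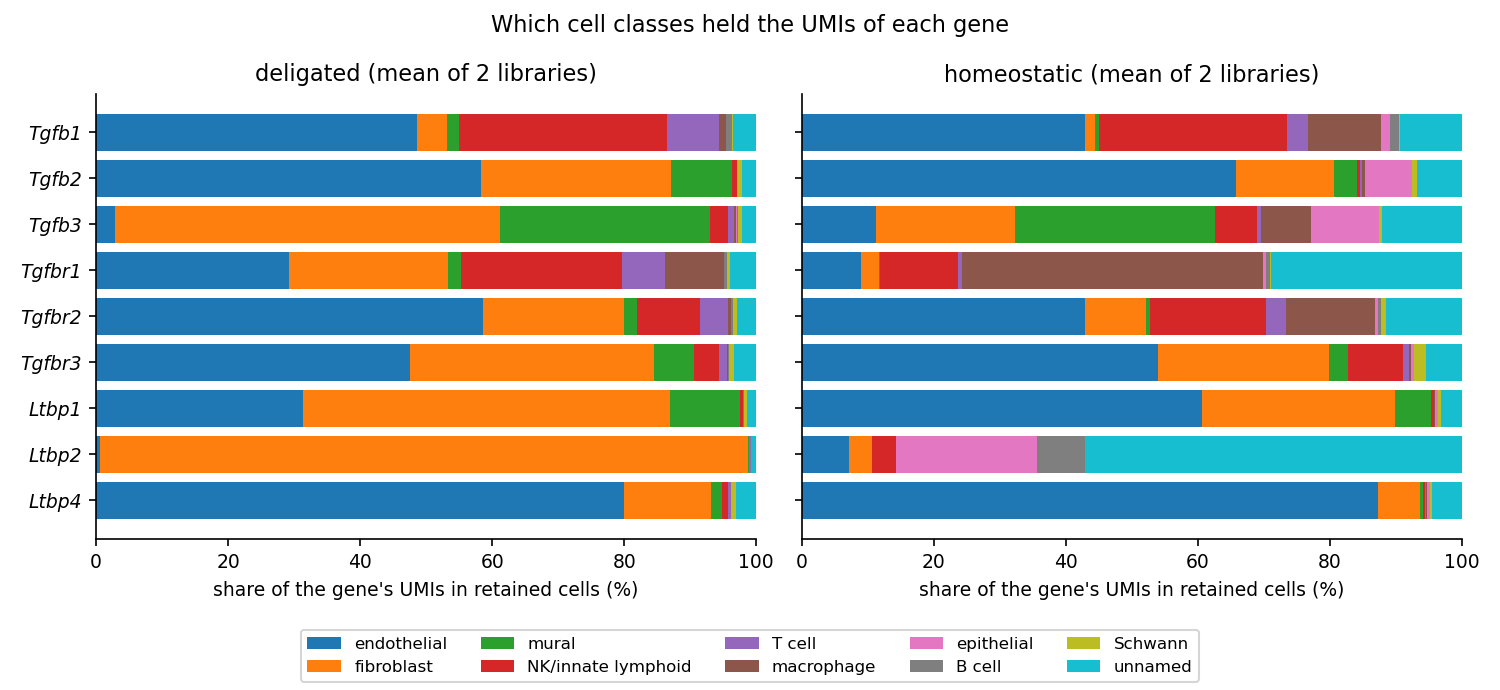
Share of each gene's UMIs in all retained cells that came from each cell class (%), mean of the 2 libraries of a group. Fibroblast-like cells hold 58.3% of Tgfb3 in deligated and 21.0% in homeostatic libraries, and macrophage-like cells hold 45.6% of Tgfbr1 in homeostatic libraries; the homeostatic Ltbp2 bar rests on 14 and 7 UMIs.

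Genes that hold or release the latent ligand were read from a list of 14. This list and those below were chosen with earlier results of these data known, so counts beside a background are a description. In fibroblast-like cells 4 of 12 tested rose and 0 fell (5 and 1 with the trend removed), where the background was 26.9% (17.7% with the trend removed). Ltbp3, another binder of latent ligand, stood at 167, 178, 78.5 and 96.5 CPM (1.04, SE 0.15, adjusted p = 0.00046), and Lrrc32, which displays latent ligand at the cell surface, at 72.9, 76.4, 48.6 and 44.0 CPM (0.75, SE 0.15, adjusted p = 0.0040). Emilin1, an inhibitor of ligand processing, and the integrin chain Itgb5 also rose (0.56 and 0.45). The call of Emilin1 was lost with the trend removed (0.30, adjusted p = 0.17) and that of Itgb5 held (1.14, adjusted p = 0.00034). In endothelial-like cells 4 rose and 3 fell of 12 (5 and 2 with the trend removed), where the background was 35% (28.4%): Emilin1 (1.08), Ltbp3 (0.82), Lrrc32 (0.73) and the ligand-cleaving protease Furin (0.56) were higher, and the integrin chains Itgav (-0.80) and Itgb5 (-0.62) were among the lower. Of these, Itgav stayed called with the trend removed (-0.51, adjusted p = 0.022) and Itgb5 did not (-0.10, adjusted p = 0.61). Lrrc32 was the 1 gene of 9 called in mural-like cells (0.74, SE 0.18, adjusted p = 0.030; background 8.02%), a call lost with the trend removed (0.59, adjusted p = 0.12), where 1 of 9 was again called, Fbn1, a fibrillin of the matrix, as higher (background 3.87%). In NK/innate lymphoid-like cells 1 rose and 2 fell of 7 under both fits (backgrounds 44.7% and 31%). In T cell-like cells 3 of 5 fell, where the background was 22.9%: Itgb3 by 2.48, Itgav by 1.04 and Nrros, which tethers latent ligand on myeloid cells, by 0.91. Only 2 of the 5 were called with the trend removed (13.2%), and Itgav was not (-0.48, adjusted p = 0.16). The median log2 fold change of this list was 0.43 in fibroblast-like, 0.08 in endothelial-like, 0.54 in mural-like, -0.44 in NK/innate lymphoid-like and -0.91 in T cell-like cells.

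Of 17 co-receptors, Smads and their regulators, Smad3, a signal carrier of the pathway, was called lower in all 5 classes. It stood at 61.1, 85.0, 244 and 254 CPM in fibroblast-like cells (-1.71, SE 0.16, adjusted p = 2.9e-05), and its change was -1.42 in endothelial-like, -1.71 in mural-like, -1.93 in NK/innate lymphoid-like and -2.38 in T cell-like cells. It remained called with the trend removed in each class, at -1.07, -0.95, -1.28, -1.09 and -1.56 in the same order. Smurf2, a ubiquitin ligase acting on the receptors, was likewise called lower in all 5 classes, with changes of -0.87 to -1.72, and in 3 of the 5 with the trend removed. Pmepa1, an inhibitor induced by the pathway, rose in fibroblast-like (501, 591, 264 and 283 CPM, 1.05, SE 0.13, adjusted p = 0.00020) and endothelial-like cells (0.49). In T cell-like cells the inhibitors Smad7 (0.83) and Skil (0.89) rose. Over the list, 3 rose and 5 fell of 17 in fibroblast-like, 4 and 5 of 17 in endothelial-like, 0 and 3 of 14 in mural-like, 5 and 6 of 15 in NK/innate lymphoid-like and 2 and 4 of 15 in T cell-like cells, beside backgrounds of 26.9%, 35%, 8.02%, 44.7% and 22.9%. With the trend removed 3 and 2, 2 and 3, 0 and 1, 4 and 3, and 2 and 1 were called in the same order, beside 17.7%, 28.4%, 3.87%, 31% and 13.2%. Its medians lay between -0.17 and 0.19.

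Of 17 genes that respond to TGF-beta, 10 rose and 3 fell among the 15 tested in fibroblast-like cells, with a median of 1.43 and a background of 26.9%. This list too was chosen with earlier results of these data known, so its counts are a description. Cilp, Col1a1, Col3a1 and Col1a2 were also among the leading genes of the deligated fibroblast-like cluster 7. The 10 mural markers, Acta2 and Tagln of this list among them, summed to 567, 588, 390 and 384 CPM in the same fibroblast-like sums, and their part in the result was not tested. Cilp, a matrix protein, stood at 1027, 593, 53.0 and 29.4 CPM (4.36, SE 0.33, adjusted p = 7.8e-06), and Postn, which codes for the matrix protein periostin, at 386, 151, 41.2 and 30.9 CPM (2.96, SE 0.41, adjusted p = 0.00041). Timp1, a protease inhibitor, stood at 322, 94.7, 18.6 and 33.6 CPM (3.07). Deligated 1 was the highest library for all 3, as it was for Tgfb3. In mural-like cells 4 rose and 1 fell of 10 (background 8.02%), with Col1a1 (0.91), Col1a2 (0.75) and Col3a1 (544, 408, 182 and 154 CPM) among the higher. The fibroblast markers, a list that itself holds these 3 collagens, summed to 1576, 1696, 903 and 1102 CPM in the same mural-like sums, and their part in the result was not tested. Ldlrad4, an inhibitor of the pathway, was called lower in all 5 classes, at 13.3, 10.4, 93.7 and 103 CPM in fibroblast-like cells (-3.00, SE 0.18, adjusted p = 2.0e-06) and by 2.40 to 3.19 in the others, and stayed called with the trend removed (-0.71 to -2.09). In endothelial-like cells 8 rose and 2 fell of 14, in NK/innate lymphoid-like cells 6 and 1 of 8, and in T cell-like cells 5 and 1 of 7, beside backgrounds of 35%, 44.7% and 22.9%, with medians of 1.21, 2.96 and 3.24 beside 0.64 in mural-like cells. The counts with the trend removed were 10 and 1 in fibroblast-like, 3 and 1 in mural-like, 6 and 2 in endothelial-like, 6 and 1 in NK/innate lymphoid-like and 4 and 1 in T cell-like cells, beside 17.7%, 3.87%, 28.4%, 31% and 13.2%. The collagens among them were low there, with Col1a1 at 4.22, 12.0, 0.491 and 0.513 CPM in endothelial-like cells, and the fibroblast markers, these collagens included, summed to 59.1, 211, 21.5 and 18.0 CPM in the same sums. In NK/innate lymphoid-like sums they came to 66.6, 222, 13.1 and 13.6 CPM, and in T cell-like sums to 78.0, 257.5, 16.4 and 33.5 CPM. The 10 mural markers, which include the response genes Acta2 and Tagln, came to 52.6, 83.7, 26.0 and 32.6 CPM in NK/innate lymphoid-like and 71.1, 125, 12.7 and 9.86 CPM in T cell-like sums, and the part of either list in the result was not tested. Itgae, an integrin chain of tissue-resident T cells, stood at 117.5, 236, 72.7 and 92.7 CPM in T cell-like cells (1.23, SE 0.32, adjusted p = 0.026). The 10 NK/innate lymphoid markers stood at 2091, 3547, 849 and 831 CPM in the same sums, and their part in the result was not tested.

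The genes with the pattern most like that of each member were sought over the 20 sums of 5 classes and 4 libraries, among 9543 genes, by Pearson's r of log2(CPM + 10). These sums share libraries and depth, and r is a description. For Tgfb3 they were Postn (r = 0.98), Gtf2h5 (0.98) and Slc7a2 (0.97). For Tgfb2 they were Tcaf1, Cttn and Amotl1 (0.99 to 1.00), for Tgfb1 Psme1, Actg1 and Nudt14 (0.95 to 0.98), and for Ltbp4 Tmem204, Gas6 and Snai2 (0.99). Ltbp1 was most like Pmp22, Cbr3 and Neo1 (0.99), and Tgfbr3 most like Fndc3b, Nfia and Glg1 (0.96 to 0.97). The closest genes to Tgfbr1 (Cbfb, Lrrk1 and Dnajc1, 0.92 to 0.94) and Tgfbr2 (Tmem260, Ralgds and Ptdss1, 0.90 to 0.91) were less alike. Ltbp2, which was below the level required of the other genes, was nearest to Timp1 (0.84), Cilp (0.79) and Spp1 (0.78).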

How the data were processed

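The deposited matrices hold raw UMI counts per gene and cell barcode, made with Cell Ranger 6.0.1 (deligated) and 7.0.0 (homeostatic) per the file headers, while the submitters' processing notes give 6.0.1, Seurat and mm10 for all. Whether intronic reads were counted is not given in the sources used here. Cells with at least 300 genes and at most 10% mitochondrial UMIs were kept, high-scoring simulated-neighbour doublets were removed (0.8% per 1000 cells), and cells were clustered (3000 variable genes, 30 components, 20 neighbours, Leiden resolution 1.0). Clusters were named from at least 3 markers at 2-fold in 10% of cells. UMI sums per class (at least 50 cells) and library were tested with edgeR 4.0.16 (quasi-likelihood, TMM, filterByExpr, Benjamini-Hochberg, threshold 0.05), and DESeq2 was an alternative. The intron-length trend was a loess curve (span 0.5) used as an offset. Differences between classes were tested with library as a block. Tests were tried on simulated counts. All 9 genes are named, with up to 6 called genes of each list and class, by largest change, whose groups do not overlap. The genes and lists were chosen with earlier results of these data known.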

Additional observations from a re-analysis of the deposited data

Results flagged for a closer look

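The change of a gene between groups differed between cell classes, by a test of the difference itself, in 9 cases. The background of called genes was 5.08% for endothelial-like, 3.98% for NK/innate lymphoid-like, 3.45% for T cell-like and 0.406% for mural-like against fibroblast-like cells. Tgfb3 changed less in endothelial-like (-2.29, SE 0.54, adjusted p = 0.028) and mural-like cells (-1.99, SE 0.28, adjusted p = 0.025) than in fibroblast-like cells. Ltbp1 in endothelial-like cells differed by -0.72 (SE 0.11, adjusted p = 0.0032) and Tgfbr3 by 0.47 (SE 0.11, adjusted p = 0.029), the second not called with the intron-length trend removed (0.25, adjusted p = 0.25). In NK/innate lymphoid-like cells Tgfbr1 differed by -0.67 (SE 0.15, adjusted p = 0.023), which was not called with the trend removed (-0.55, adjusted p = 0.061). Tgfbr2 differed by -0.82 (SE 0.16, adjusted p = 0.0100) and Ltbp4 by 1.61 (SE 0.34, adjusted p = 0.016) in the same cells, the last moving with fibroblast markers in these sums. Tgfbr2 in T cell-like cells differed by -1.03 (SE 0.19, adjusted p = 0.0045). Within endothelial-like cells the Ltbp4 change in arterial-type clusters differed from that in the others by -0.43 (SE 0.08, adjusted p = 0.0071).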

How the results depend on the processing

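Counts of called genes are given out of the 9. Removing the intron-length trend gave 3 for NK/innate lymphoid-like, 0 for T cell-like (0 also at an unadjusted p under 0.05 with edgeR; DESeq2 without that step called 1) and 1 for mural-like cells. DESeq2 called 1 for T cell-like and 0 for mural-like cells (3 at an unadjusted p under 0.05). Arterial-type clusters alone, chosen after seeing the data, gave 2 for endothelial-like cells. Each library was left out in turn, where the lone library of a group is assumed to vary like the other group. The counts then ran from 2 to 7 (endothelial-like), 4 to 5 (NK/innate lymphoid-like), 0 to 4 (T cell-like), 2 to 6 (fibroblast-like), 1 to 3 (mural-like) and 3 to 9 (all retained cells). Of 634 single values under alternatives, 542 kept their direction and call, 62 lost and 15 gained a call, and 15 turned. With the trend removed the turned values were Tgfbr3 at 0.35 (endothelial-like) and 0.67 (all retained cells), and Ltbp1 at 0.41 (endothelial-like), 1.30 (fibroblast-like) and 0.41 (mural-like). Tgfb3 in endothelial-like cells, near 0 throughout, was -0.0159 with the trend removed, -0.18 under the stricter cell filter and -0.12 with thinned sums, and ran from -0.31 to 0.30 with a library left out. Left-out libraries moved Ltbp4 in T cell-like cells from -0.0038 to 1.57, Tgfb2 from -0.0117 to 0.26 (fibroblast-like) and from -0.0083 to 0.28 (mural-like), and Tgfbr2 from -0.0483 to 0.24 (fibroblast-like). With doublets kept Tgfb2 was -0.19 in mural-like cells. Apart from the trend's own construction, the cause was not tested. With the replicate number as a block the counts were 6, 5, 2, 5, 3 and 8 in the order of classes above. The correlation of deviations of same-numbered libraries ran from -0.101 to 0.0948, so that they share only a number, and for endothelial-like cells the crossed pairing, chosen after seeing the data, gave a count of 6. The stricter cell filter left 45 mural-like cells in homeostatic 2, so that class has no value there. The 8 differences from the fibroblast-like change were 9 without a filter on low counts and 8 with the trend removed. With 2 libraries per group an exact permutation test cannot go below a p of 0.333. Ltbp2, and Tgfb3 outside fibroblast-like and mural-like cells, were near the limit set by depth.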
